A study of Homo sapiens with 24 samples.

Results

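The response of the luminal bladder cancer line RT112 to depletion of FOXA1 was measured in 4 libraries, 2 transfected with a FOXA1 siRNA (siFOXA1) and 2 with a control siRNA (siControl), out of 24 libraries in the series. The members were taken from the labels, which give the cell line, the siRNA and the replicate number. RT112 is a line grown from a human urothelial carcinoma and is classed by the study as luminal papillary (LumP). All cells grew in RPMI with fetal bovine serum and were transfected with Lipofectamine RNAiMAX, so both groups had gone through transfection. The labels name siControl number 2 and siFOXA1 number 1, which makes a single siRNA per group. With 1 siRNA per group, an effect of FOXA1 loss and any other effect of that siRNA cannot be told apart. The labels give neither the time of harvest nor the dose. The assay was 3′ RNA-seq, in which oligo-dT priming places reads near the 3′ end of polyadenylated transcripts, and levels are given as CPM, which are counts scaled to a common library size after TMM normalisation. The other 8 RT112 libraries, which received ZBED2 siRNAs with or without siFOXA1, served only to estimate the spread. Replicate numbers mark experiment batches, and nothing further states how independent the cultures were, so p-values measure the spread between such libraries.

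FOXA1 is a forkhead transcription factor that can bind sites in closed chromatin and open them for other factors. In urothelium it is known to act with GATA3 and PPARG in maintaining luminal differentiation, the programme of uroplakins and simple keratins in the upper cell layers. Interferon-stimulated genes, which recur below, are known to be switched on by factors such as STAT2 and IRF9 that act at the interferon-stimulated response element. Mitotic genes are known to share a promoter element of their own, the cell cycle genes homology region, and replication genes often carry E2F sites.

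The luminal label was checked first on part of a fixed set of markers in the siControl libraries. GATA3 stood at 492 and 518 CPM, UPK1B at 1080.0 and 1025, UPK2 at 108 and 96.7, PPARG at 93.2 and 104 and FGFR3 at 98.4 and 124. The terminal luminal markers KRT20 and UPK3A had 0 counts in all 4 libraries. A listed 0 is weak evidence of absence here, since IFNGR2 and the cytokine MIF, which epithelial cells are known to express, were also listed at 0. Of the basal markers, KRT14 stood at 1.98 and 1.84 CPM and KRT6A at 11.6 and 0.918, while KRT5 was present at 217 and 175. The luminal GRHL3, with 7 and 4 counts under siControl, and the basal DSG3, with 0 and 5, did not pass the filter. The luminal ELF3 and the basal EGFR were expressed, at levels given further on. The luminal ERBB2 and the basal TP63, CD44 and DSC3 were tested as well, and their levels are not shown here. Of 15 markers of leukocytes, endothelium and fibroblasts, 12 did not pass the filter on low counts, and 8 of these, PTPRC, CD14 and PDGFRB among them, had 0 counts in all 4 libraries. Of the 3 tested, the fibroblast marker COL1A1 was called higher with siFOXA1. The fibroblast marker LUM and the endothelial marker PECAM1 were called lower. PECAM1 had 26 and 10 counts under siControl and 0 under siFOXA1. On TPM 1 of the 3 was called lower. Summed, the 3 stood at 123 and 163 CPM under siControl and 107 and 111 under siFOXA1. The endothelial CDH5, which did not pass the filter, went the other way, from 0 and 0 counts under siControl to 10 and 25 under siFOXA1. VWF, also endothelial and not tested, had 0 and 11 counts under siControl and 6 and 0 under siFOXA1. The libraries held between 4526890 and 5192750 counts. A single count was worth 0.184 to 0.22 CPM, and a count of 0 allows up to 3 counts. The siFOXA1 libraries detected 14887 and 14154 genes and the siControl libraries 15377 and 15065. Transcripts of the mitochondrial genome took 21.4% and 22.7% of counts with siFOXA1 and 17.8% and 12.2% with siControl. The part of this shift in the results was not tested. Without mitochondrial transcripts 3120 genes were called, beside 3084 with them.

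Promoter sequences of genes that recur below are shown because each carries a short element for which its group is known. How many members hold the element is given further on. The sequences were chosen after the values were seen, come from RefSeq on GRCh38.p14, read 5′ to 3′ on the strand of the gene, and carry the matched element in capitals. The first set holds the core of the interferon-stimulated response element, GAAA, any 2 bases and GAAA again, or its reverse complement, with overlapping matches capitalised together. The stretches are those of IFIT1 (chr10:89392485-89392564, plus strand), IFI6 (chr1:27672241-27672320, minus strand), IFIH1 (chr2:162318661-162318740, minus strand) and CD274 (chr9:5450305-5450384, plus strand).
IFIT1: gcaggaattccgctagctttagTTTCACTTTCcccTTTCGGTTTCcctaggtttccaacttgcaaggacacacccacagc
IFI6: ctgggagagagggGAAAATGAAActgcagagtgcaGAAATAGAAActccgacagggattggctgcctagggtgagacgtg
IFIH1: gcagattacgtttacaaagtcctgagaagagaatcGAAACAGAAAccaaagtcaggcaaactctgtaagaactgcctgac
CD274: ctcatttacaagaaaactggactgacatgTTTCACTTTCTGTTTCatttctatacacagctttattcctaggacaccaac

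The second set holds TTTGAA, the core of the cell cycle genes homology region, in CCNB2 (chr15:59105082-59105157, plus strand), CDC20 (chr1:43358881-43358956, plus strand) and PLK1 (chr16:23678825-23678900, plus strand).
CCNB2: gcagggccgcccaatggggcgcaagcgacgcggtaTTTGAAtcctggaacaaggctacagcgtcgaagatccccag
CDC20: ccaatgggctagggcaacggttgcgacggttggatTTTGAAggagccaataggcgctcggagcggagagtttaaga
PLK1: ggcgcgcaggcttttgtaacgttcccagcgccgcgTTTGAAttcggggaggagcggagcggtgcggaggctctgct

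The third set holds an E2F site, TTTGGCGC or TTTCGCGC on either strand, in the replication genes MCM7 (chr7:100101364-100101441, minus strand) and GINS1 (chr20:25407643-25407720, plus strand). The last stretch holds TCACGTGA, the E-box core of lysosomal genes, in ATP6V0D1 (chr16:67481175-67481252, minus strand), a subunit of the proton pump of lysosomes.
MCM7: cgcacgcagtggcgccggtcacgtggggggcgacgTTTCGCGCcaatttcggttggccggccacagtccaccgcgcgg
GINS1: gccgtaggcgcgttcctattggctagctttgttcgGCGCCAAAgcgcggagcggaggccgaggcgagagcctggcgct
ATP6V0D1: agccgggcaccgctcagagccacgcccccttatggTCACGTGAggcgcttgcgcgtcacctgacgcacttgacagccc

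FOXA1 (ENSG00000129514) was measured as the check of the knock-down. It stood at 42.2 and 41.3 CPM under siControl and at 6.84 and 9.46 under siFOXA1 (log2 fold change −2.36, SE 0.38, adjusted p 5.68e-05), a 5.12-fold loss that left FOXA1 detectable in both. Expression changed across much of the transcriptome. Of 13264 genes tested 23.3% were called at an adjusted p under 0.05, 11.3% higher (1499) and 11.9% lower (1585). The calls were split 48.6% higher, and on TPM values with limma 18.3% of 2139 calls were higher, where the median of all genes was shifted to −0.26. All 3084 called genes moved in the same direction in both batches, and in 3083 the groups did not overlap. Of all genes tested, 29.6% had both siFOXA1 libraries above both siControl libraries and 31.7% had both below. The calls were made on these same libraries, so neither count is a replication of them. The median size of a called change was 1.06 on the log2 scale. A change of more than 2-fold beyond error was found for 2.56% of genes, 0.912% higher (121) and 1.64% lower (218). The share called differed by level, with 3.66% of genes under 5 CPM and 48.7% of those over 100 CPM.

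Calls rested on 2 libraries per group. Leaving out siFOXA1 replicate 2 left 1885 calls and leaving out siControl replicate 2 left 1869, while leaving out either replicate 1 left 2870 (siFOXA1) or 2207 (siControl). The change past 2-fold held for 172 genes without siFOXA1 replicate 2. Whichever library was left out, 1276 of the 3084 genes were called, 578 higher and 698 lower. A gene named below as having risen or fallen is among these genes, except where the loss of its call is stated. This does not extend to TPM. There the calls of ATP6AP1, ATP6V0D1, CASP4, CDH1, CDK6, CYLD, DDX58, EGFR, ERBB3, IER2 and ITGB1 were lost. Those of JUN, MMP14, NFKBIA, NPC1, PSAP, PTPN1, S100A9, SPRR3, SREBF2, ZNFX1 and HIST3H2A were lost there too. Counts of list members that rose or fell are those of the fit on all 12 RT112 libraries, unless another fit is named.

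**Figure D1:**
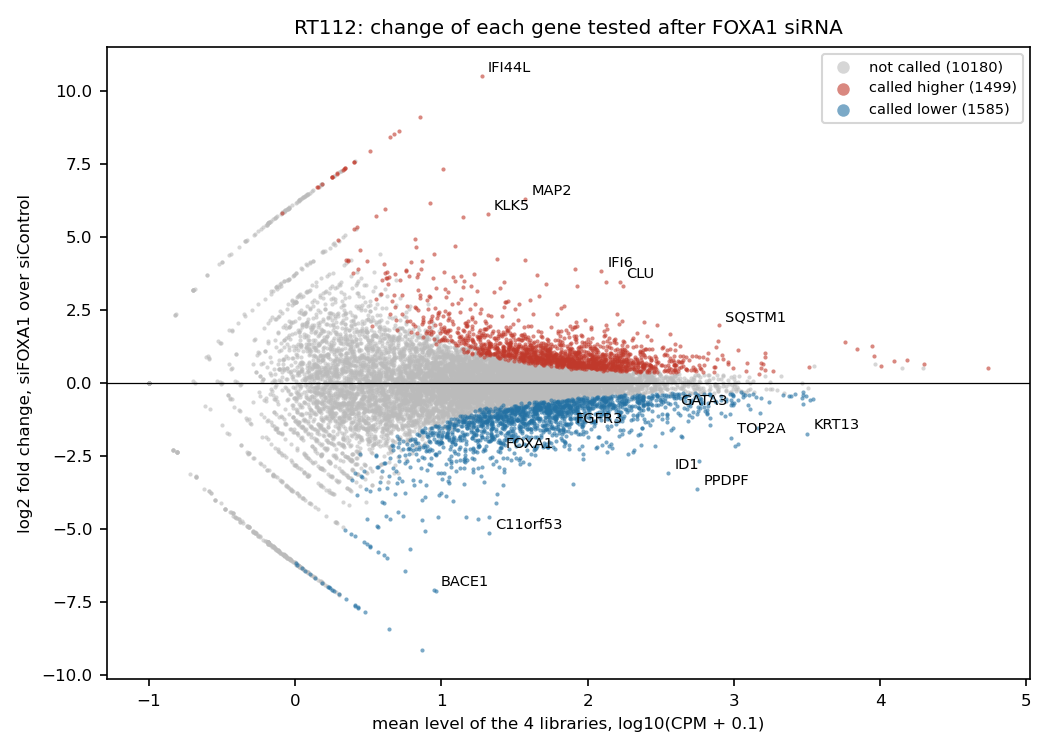
Log2 fold change (siFOXA1 over siControl, vertical axis) against the mean level over the 4 libraries (log10 of CPM + 0.1, horizontal axis) for each of 13264 genes tested, with called genes in colour. The 1499 higher and 1585 lower genes lie on both sides of 0 at all levels, and in the slanted rows at the left, which are genes with few counts, the fitted value depends on the prior count of the fit.

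The genes with the smallest p values were of mixed function. Among those that rose, CLU (ENSG00000120885; chr8:27596917-27614700, GRCh38.p14 as for all gene positions), which encodes the extracellular chaperone clusterin, stood at 26.4 and 28.4 CPM under siControl and 272 and 335 under siFOXA1 (log2 fold change 3.47, SE 0.19, adjusted p 3.3e-12). FBXO32 (chr8:123497889-123541206), an F-box subunit of ubiquitin ligases, went from 15.8 and 14.3 to 144 and 162 CPM (3.34, SE 0.22, adjusted p 4.88e-11). MAP2 (chr2:209424047-209734112), a microtubule-associated protein best known from neurons, was near the floor under siControl at 1.54 and 0.367 CPM and stood at 59.5 and 87.1 under siFOXA1 (6.30, SE 0.42, adjusted p 5.09e-11). These genes were thus low in RT112 and came to a moderate level in both siFOXA1 libraries. CALU (chr7:128739359-128773400), a calcium-binding protein of the endoplasmic reticulum, rose from 104 and 81.7 to 373 and 414 CPM (2.08, SE 0.15, adjusted p 2.99e-10). LIPH (chr3:185506262-185552588), a phospholipase, rose from 20.2 and 18.2 to 116 and 122 CPM (2.64, SE 0.20, adjusted p 6.49e-10). ATOX1 (chr5:151742822-151758631), a copper chaperone, rose from 101 and 137 to 440.0 and 516 CPM (2.01, SE 0.18, adjusted p 1.12e-08). The hair keratin KRT81 rose by 3.90 (adjusted p 1.1e-08), but it resembles KRT86, and reads of such paralogs can be miscounted, so its level is uncertain.

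Among the genes that fell, PPDPF (ENSG00000125534; chr20:63520741-63522206), named for pancreatic progenitor differentiation, had the smallest p. It stood at 1037 and 1048 CPM under siControl and at 110.2 and 58.5 under siFOXA1 (−3.62, SE 0.20, adjusted p 4.71e-12). RAI14 (chr5:34656328-34832612), an actin-binding protein, fell from 234 and 223 to 44.7 and 44.5 CPM (−2.36, SE 0.18, adjusted p 6.62e-10). PABPC4 (chr1:39560816-39576790), which binds poly(A) tails, fell from 691 and 655 to 217 and 169 CPM (−1.80, SE 0.14, adjusted p 6.62e-10). That the groups do not overlap in these genes follows from the rule that chose them. NSA2 (chr5:74767249-74780113), a factor of ribosome biogenesis, fell from 571 and 545 to 187 and 177 CPM (−1.62, SE 0.13, adjusted p 1.62e-09), and TRMT112 (chr11:64316460-64318596), an activator of methyltransferases that act on tRNA and rRNA, fell from 433 and 504 to 116 and 92.9 CPM (−2.16, SE 0.16, adjusted p 3.52e-10). By size of change, C11orf53 fell furthest among genes with a mean of at least 20 CPM, from 27.7 and 54 to 1.01 and 1.29 CPM (−5.13, SE 0.54, adjusted p 1.77e-07). The log2 fold change was −4.60 for PALM, a membrane-associated protein, −4.10 for FRMD3, −2.78 for the mitochondrial protein CHCHD10 and −2.93 for the polycomb-associated PHF19. In the calls near the floor, BACE1, a protease of the secretory pathway, had 74 and 103 counts under siControl and 1 and 0 under siFOXA1, and RIPPLY3, a transcriptional co-repressor, had 89 and 90 and 0 and 1, both of them chosen after their values were seen.

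Luminal transcription factors were lower in part. Of 24 listed 20 were tested, 8 fell, 1 rose and 11 were not called, with a median log2 fold change of −0.44 beside −0.015 over all genes. GATA3, a zinc finger factor of the luminal lineage, stood at 492 and 518 CPM under siControl and 269.6 and 276 under siFOXA1 (−0.89, SE 0.14, adjusted p 3.03e-05). PPARG, a nuclear receptor that drives urothelial differentiation, stood at 93.2 and 104 and 49.9 and 42.1 CPM (−1.10, SE 0.20, adjusted p 0.000171). KLF5 stood at 357 and 354 and 145 and 136 CPM (−1.34, SE 0.13, adjusted p 7.51e-08). All 3 factors were thus expressed after the knock-down at roughly the same reduced level in both siFOXA1 libraries. FOXQ1, another forkhead factor, went from 102 and 133 to 45.9 and 26.2 CPM (−1.70, SE 0.24, adjusted p 7.38e-06). BHLHE41, a circadian repressor, fell by 0.70 on the log2 scale (adjusted p 0.00282). Not all factors of the list followed. ELF3, an epithelial ETS factor, stood at 252 and 268 CPM under siControl and 269 and 253 under siFOXA1 (log2 fold change 0.00, SE 0.14, adjusted p 0.997), and GRHL2 gave −0.29 (adjusted p 0.359). KLF4 was the member that rose, from 1.32 and 1.28 to 6.44 and 9.89 CPM (2.63, SE 0.70, adjusted p 0.00728). Among the fits that leave out a library, this call was held only without siFOXA1 replicate 1. ZBED2, a zinc finger factor that the study knocked down in other libraries, had 101 and 92 counts under siControl and 27 and 7 under siFOXA1 (−2.48, SE 0.84, adjusted p 0.0325). Its call, too, was held among those fits only without siFOXA1 replicate 1.

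Luminal differentiation genes followed in part. Of 26 listed, 22 were tested, 8 fell and 3 rose (median −0.41), and 5 fell without siFOXA1 replicate 1, without siControl replicate 2 or when the 4 libraries were fitted alone. FABP4, a fatty acid carrier known as a PPARG target, stood at 926 and 1058 CPM under siControl and 195 and 117 under siFOXA1 (−2.67, SE 0.18, adjusted p 5.53e-11). PSCA, a surface antigen of luminal epithelia, stood at 89.9 and 91 and 26.6 and 16.6 CPM (−2.06, SE 0.23, adjusted p 2.83e-07). UPK1B, a tetraspanin of the uroplakin plaques, changed far less, from 1080.0 and 1025 to 689.8 and 757 CPM (−0.54, SE 0.12, adjusted p 0.0014), and UPK2 did not pass (−0.41, SE 0.16, adjusted p 0.0581) but was called lower in 5 of 13 alternatives, with an adjusted p of 0.0468 with the replicate block and 0.0455 with DESeq2. The receptor ERBB3 was among the members that rose. Secretory and mucosal proteins held some of the deepest losses, with 5 lower (3 at a mean of at least 5 CPM) and 2 higher of 11 tested out of 20 listed. AGR2, a disulphide isomerase of mucus-producing cells, stood at 145 and 143 CPM under siControl and 14.1 and 12.5 under siFOXA1 (−3.44, SE 0.20, adjusted p 5.76e-12). The trefoil peptide TFF1 went from 42 and 47.9 to 5.83 and 0.43 CPM (−3.81, SE 0.48, adjusted p 2.25e-06), the mucin MUC1 from 8.57 and 6.97 to 0.604 and 1.07 CPM (−3.18, SE 0.76, adjusted p 0.00285). Within the CEACAM adhesion family the members moved apart. CEACAM6 (−1.49, SE 0.25, adjusted p 8.32e-05) and CEACAM5 (−3.01, SE 0.81, adjusted p 0.00774) fell, whereas CEACAM1, which can inhibit lymphocytes, rose (1.66, SE 0.31, adjusted p 0.000234).

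Keratins and junctions shifted in both directions. Of 19 listed members, all tested, 8 fell and 5 rose, and 5 fell without siFOXA1 replicate 2 or siControl replicate 2. The simple keratins KRT7 (−0.74, SE 0.12, adjusted p 6.8e-05) and KRT18 (−0.74, SE 0.14, adjusted p 0.000474) fell. Desmoplakin, encoded by DSP, went from 351 and 262 to 170.4 and 89.6 CPM (−1.23, SE 0.20, adjusted p 5.3e-05), and the desmosomal cadherin DSG2 fell by 0.68 on the log2 scale. Some junction genes rose. CDH1, which encodes E-cadherin, stood at 216 and 255 CPM under siControl and 437 and 491 under siFOXA1 (0.98, SE 0.16, adjusted p 4.44e-05). CLDN4, a tight junction claudin, stood at 476 and 422 and 1083 and 1063 CPM (1.26, SE 0.14, adjusted p 4.9e-07), and the polarity gene PARD6B at 59.3 and 57.8 and 183 and 221 CPM (1.78, SE 0.17, adjusted p 4.82e-08). Of 19 claudin and tight junction genes tested 4 were called, all higher, and 15 were not, and on TPM 2 were called. KRT80 rose by 1.71 (adjusted p 1.36e-08).

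The basal and squamous programme did not move as a block. Of 38 listed markers 29 were tested, 7 rose and 6 fell, with a median of −0.38, and 4 rose without siControl replicate 2 and 2 on TPM. KRT13, the keratin of intermediate and stratified layers and among the abundant transcripts of the line, stood at 4764 and 4965 CPM under siControl and 1816 and 1122 under siFOXA1 (−1.73, SE 0.16, adjusted p 1.57e-08). LY6D, a surface protein of stratified epithelia, went from 296 and 380.1 to 157 and 133 CPM (−1.22, SE 0.18, adjusted p 2.07e-05). TP63, the basal master factor, fell by 1.89 (SE 0.48, adjusted p 0.0051), a call lost without siFOXA1 replicate 2 or siControl replicate 2, and of 15 basal transcription factors tested 3 were called lower and 3 higher, with 1 higher without siFOXA1 replicate 1 or siControl replicate 2 and 0 on TPM. On the other side, the squamous protease KLK5 was almost absent under siControl at 0.879 and 0.551 CPM and stood at 37.6 and 43.4 under siFOXA1 (5.80, SE 0.58, adjusted p 7.08e-08). LYPD3, a surface protein of migrating keratinocytes, rose from 217 and 231 to 521 and 624 CPM (1.35, SE 0.13, adjusted p 6.51e-08), and SPRR3, of the cornified envelope, by 0.73 (adjusted p 0.00449). The defining basal keratins were not among the calls, although KRT5 (0.40, SE 0.19, adjusted p 0.134) was called higher with the replicate block (adjusted p 0.042), and KRT14 stood at 1.61 and 0.86 CPM under siFOXA1. Among the S100 proteins 5 fell and 2 rose of 15 tested. S100P, a calcium-binding protein of the apical epithelium, stood at 1505 and 1803 CPM under siControl and 402 and 339 under siFOXA1 (−2.16, SE 0.13, adjusted p 7.52e-12), while S100A9, a neutrophil and squamous gene, rose by 1.03 (adjusted p 0.00223). Mesenchymal markers were split as well, with 5 higher and 3 lower of 16 tested and 1 higher on TPM. COL1A1 rose from 5.05 and 4.4 to 39.8 and 42.1 CPM (3.11, SE 0.36, adjusted p 5.86e-07). The fibroblast markers COL1A2, COL3A1 and PDGFRB had 0 counts in all 4 libraries, and VIM had at most 3. LUM, another fibroblast marker, passed the filter and was called lower.

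**Figure D2:**
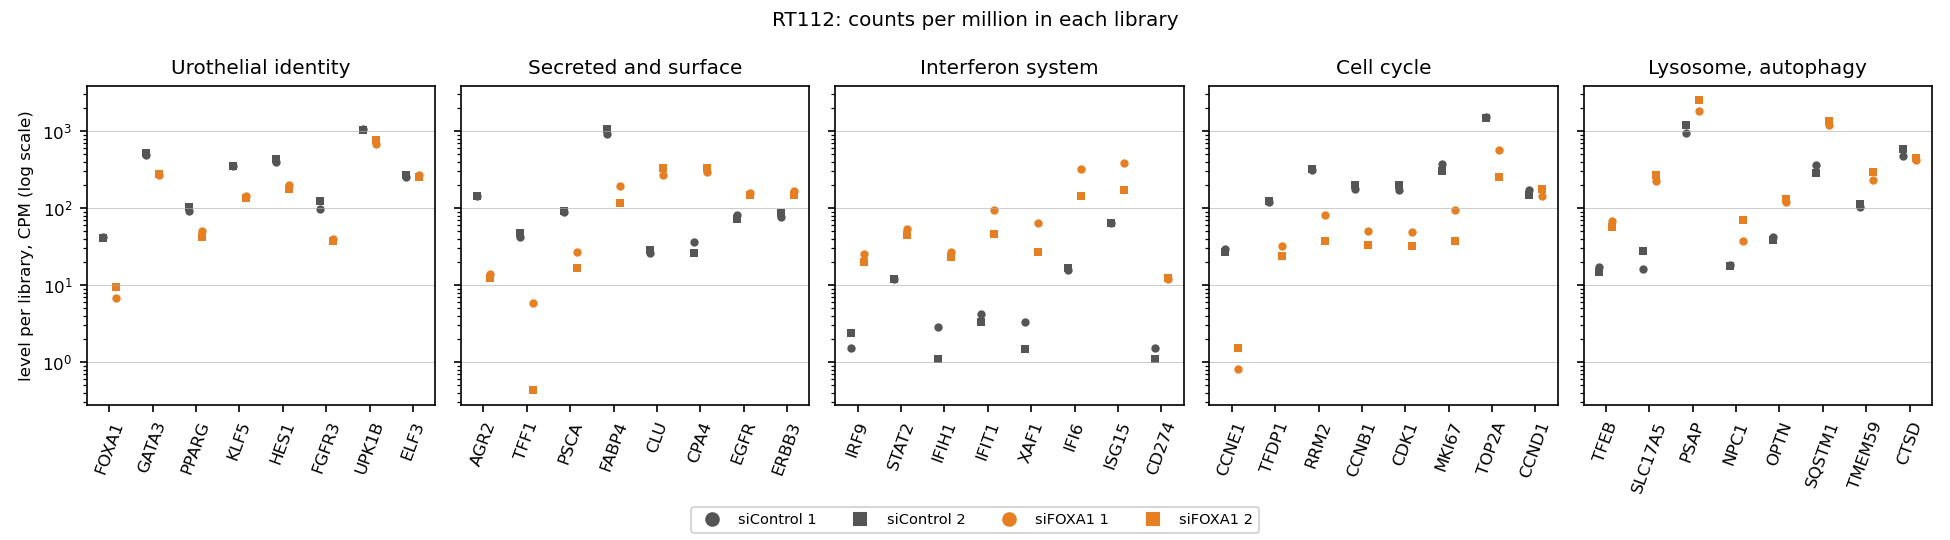
Level of 40 genes in each of the 4 RT112 libraries (CPM on a log axis), grouped by role, with siControl in grey and siFOXA1 in orange and the marker shape giving the replicate. In most genes shown the replicates of a group lie close together and the groups apart, as for AGR2 at 145 and 143 against 14.1 and 12.5 CPM, and ELF3 and CCND1 are examples without a gap.

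Genes of the interferon system were more often higher than lower. The factors that carry the signal were followed first. IRF9 stood at 1.54 and 2.39 CPM under siControl and 25.3 and 20.0 under siFOXA1 (3.50, SE 0.74, adjusted p 0.00096), and STAT2 at 12.1 and 12.1 and 54.1 and 45.1 CPM (2.03, SE 0.31, adjusted p 2.32e-05). Both were higher in each siFOXA1 library than in either siControl library, and groups did not overlap in 3083 of the 3084 called genes. Of 32 listed interferons, receptors and JAK-STAT genes 21 were tested, 9 rose and 1 fell (median 0.84), and 5 rose without siControl replicate 2 and 3 on TPM, where the median was 0.50. The member that fell was the kinase JAK1, from 116 and 114 to 51.7 and 62.3 CPM (−1.01, SE 0.18, adjusted p 0.000129), and the phosphatase PTPN1, which acts on JAK kinases, rose by 0.84 (adjusted p 1.06e-05). IRF1 did not pass (0.51, SE 0.25, adjusted p 0.157). The 8 interferon genes listed, IFNB1 and IFNL1 among them, and IRF7 had 0 counts in all 4 libraries. As said above, a listed 0 is weak evidence of absence.

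Sensors of foreign nucleic acid were higher in part, with 11 higher and 2 lower of 29 tested out of 30 listed (median 0.64). The number that rose was 4 without siControl replicate 2 and 6 without siControl replicate 1, and on TPM it was 1 and the median 0.31. IFIH1, which encodes the double-stranded RNA sensor MDA5, stood at 2.86 and 1.1 CPM under siControl and 26.8 and 23 under siFOXA1 (3.67, SE 0.63, adjusted p 0.000115). ZNFX1, another RNA-binding sensor, rose from 111 and 113 to 223 and 192 CPM (0.89, SE 0.18, adjusted p 0.000564). DDX58, which encodes RIG-I, stood at 9.45 and 6.79 and 29.6 and 27.3 CPM (1.81, SE 0.49, adjusted p 0.00819), a call lost without siControl replicate 2, and TLR3 did not pass (2.65, SE 1.26, adjusted p 0.135).

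Of the antiviral effectors 54 were tested out of 57 listed, 21 rose and 1 fell, with a median of 1.19. On TPM 11 rose and the median was 0.61, and over the fits that leave out a library the median ran from 0.68 to 1.33. Where siControl had 0 counts, a bound from 3 counts was used in place of the fitted value, and the median was then 1.12. IFIT1, which binds viral RNA caps, stood at 4.17 and 3.3 CPM under siControl and 94.1 and 46.6 under siFOXA1 (4.24, SE 0.62, adjusted p 1.46e-05). IFI6 stood at 15.8 and 16.7 and 319.9 and 144 CPM (3.83, SE 0.49, adjusted p 2.99e-06), and XAF1, a pro-apoptotic interferon gene, at 3.3 and 1.47 and 63.8 and 26.9 CPM (4.27, SE 0.68, adjusted p 4.82e-05). In these 3 genes siFOXA1 replicate 1 stood above replicate 2, and both stood above siControl. IFI44L had 0 counts in both siControl libraries and 238 and 127 under siFOXA1, at least 62.1-fold higher. RSAD2, which encodes viperin, had 1 and 0 counts and then 85 and 109 (adjusted p 7.38e-05). IFITM3, a membrane restriction factor, rose by 2.38 and the mono-ADP-ribosyltransferase PARP14 by 1.91 (adjusted p 4.01e-05 and 5.26e-06). The rise was not general. OAS1 (0.44, SE 0.28, adjusted p 0.285) and MX1 (1.47, SE 0.80, adjusted p 0.202) did not pass, nor did the interferon-gamma targets GBP1 (0.05, SE 0.21, adjusted p 0.908) and GBP2 (0.26, SE 0.21, adjusted p 0.4). SAMD9 fell, from 249 and 255 to 99.8 and 66.2 CPM (−1.60, SE 0.19, adjusted p 1.25e-06).

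Antigen presentation was covered poorly. Of 22 listed MHC class I genes 15 were tested and 4 were called, all higher, and each of these calls was lost in at least 1 leave-one-out fit, and 1 was called on TPM. HLA-B had 0 counts in both siControl libraries and 18 and 22 under siFOXA1 (adjusted p 0.0336), but HLA-C had at most 8 counts, and reads of near-identical genes can be lost, so these levels are uncertain. Immune checkpoint ligands had 7 higher and 1 lower of 14 tested out of 25 listed (median 0.79), and 4 higher on TPM. CD274, which encodes PD-L1, rose from 7 and 6 to 60 and 58 counts (3.20, SE 0.73, adjusted p 0.00204). VTCN1, which encodes the inhibitory ligand B7-H4, stood at 5.27 and 4.22 CPM under siControl and 43.3 and 47.7 under siFOXA1 (3.26, SE 0.36, adjusted p 2.91e-07). LGALS9, which encodes galectin-9, stood at 36.9 and 27.2 and 177 and 93.5 CPM (2.08, SE 0.28, adjusted p 4.09e-06). The member that fell was CD276, which encodes B7-H3, from 182 and 200 to 56 and 72 counts (−1.52, SE 0.31, adjusted p 0.000752).

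NF-kB genes were more often higher than lower. Of 32 listed 29 were tested, 10 rose and 2 fell, with a median of 0.34. On TPM 6 rose and the median was 0.030. NFKB2, the precursor of the p52 subunit, stood at 11.6 and 11.4 CPM under siControl and 39 and 35.9 under siFOXA1 (1.70, SE 0.32, adjusted p 0.000281). Its partner RELB went from 1.54 and 1.1 to 13.3 and 18.9 CPM (3.59, SE 0.69, adjusted p 0.000349), and the target BIRC3, an inhibitor of apoptosis, from 2.64 and 1.84 to 17.7 and 21.5 CPM (3.13, SE 0.52, adjusted p 8.2e-05). The feedback inhibitors NFKBIA (0.70) and CYLD (1.53) rose too, and TNIP1 fell by 0.94 on the log2 scale. Of 42 chemokines and cytokines 19 were tested and 4 were called, all higher, and 1 was left without siFOXA1 replicate 1 or without siControl replicate 2. CCL22, a chemokine that attracts regulatory T cells, had 0 and 2 counts under siControl and 67 and 88 under siFOXA1 (adjusted p 5.05e-05). CXCL10 had 0 counts in siControl and 21 and 7 under siFOXA1 and did not pass (adjusted p 0.0685), although it was called higher with DESeq2 and on TPM.

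Mitotic genes were lower. Of 76 listed mitosis and spindle genes 75 were tested and 70 were called, all lower, with a median of −1.76, and 38 fell by more than 2-fold beyond error. CCNB1, the mitotic cyclin B1, stood at 178 and 199 CPM under siControl and 50.3 and 33.1 under siFOXA1 (−2.17, SE 0.19, adjusted p 1.1e-08). Its kinase CDK1 stood at 173 and 202 and 49.3 and 31.8 CPM (−2.21, SE 0.21, adjusted p 2.49e-08), and the proliferation antigen MKI67 at 380.1 and 307 and 96 and 37.4 CPM (−2.36, SE 0.29, adjusted p 1.25e-06). In each of them siFOXA1 replicate 2 was the lower of the pair. The kinetochore genes SPC25 (−3.03, SE 0.39, adjusted p 2.85e-06) and NDC80 (−2.06, SE 0.23, adjusted p 4.38e-07) and the spindle gene HMMR (−2.27, SE 0.24, adjusted p 1.79e-07) fell as well. FOXM1, the transcription factor of mitotic genes, went from 283 and 502 to 199 and 54 counts (−1.57, SE 0.35, adjusted p 0.00152). The regulators whose promoters are shown above fell too, with log2 fold changes of −1.85 for CCNB2, −1.94 for CDC20 and −1.99 for PLK1. In bulk RNA a smaller share of cells in mitosis and less of the transcript per cell cannot be told apart.

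Of 52 DNA replication genes, all tested, 26 fell and 1 rose (median −0.84). Leaving out siFOXA1 replicate 2 gave a count of 11, and leaving out siControl replicate 2 gave 17. RRM2, the regulated subunit of ribonucleotide reductase, stood at 317 and 324 CPM under siControl and 81.1 and 37.6 under siFOXA1 (−2.43, SE 0.24, adjusted p 7.51e-08). TYMS, thymidylate synthase, stood at 63.9 and 82.9 and 18.5 and 8.38 CPM (−2.44, SE 0.36, adjusted p 1.46e-05), and the origin factor ORC6 at 56 and 45.7 and 14.5 and 13.5 CPM (−1.86, SE 0.30, adjusted p 5.54e-05). MCM7 and GINS1, parts of the replicative helicase, gave log2 fold changes of −0.90 and −1.46. At the G1 to S step the changes were unequal. CCNE1, cyclin E1, stood at 29.4 and 26.6 CPM under siControl and was nearly lost at 0.805 and 1.5 under siFOXA1 (−4.58, SE 0.60, adjusted p 3.58e-06). TFDP1, the dimerisation partner of E2F factors, stood at 119.5 and 122 and 32 and 24.1 CPM (−2.11, SE 0.24, adjusted p 5.13e-07), and CCNE2 fell by 2.27 on the log2 scale (adjusted p 0.000447). CDK6, a G1 kinase, rose from 94.5 and 72.7 to 195 and 171 CPM (1.13, SE 0.19, adjusted p 6.8e-05). CCND1 (0.03, SE 0.15, adjusted p 0.926), the inhibitor gene CDKN1A (0.15, SE 0.25, adjusted p 0.731), E2F1 (−0.82, SE 0.33, adjusted p 0.0702) and MYC (−0.80, SE 0.51, adjusted p 0.285) did not pass, although E2F1 was called lower in 4 of 13 alternatives, with an adjusted p of 0.021 with the replicate block. Of 34 G1 and E2F genes tested 9 fell and 1 rose, and 4 fell without siFOXA1 replicate 2 and 15 with library size alone. Of 49 DNA repair genes tested 16 were called, all lower, and 7 fell without siFOXA1 replicate 2. FANCA, of the Fanconi anaemia complex, stood at 46.8 and 33.6 and 10.1 and 6.02 CPM (−2.31, SE 0.39, adjusted p 9.58e-05).

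For the antiviral effectors and the mitosis list the batches agreed in direction and differed in size. Some other list medians changed sign between replicate numbers 1 and 2, such as mesenchymal markers (−0.33 and 0.073) and the BCL2 and caspase list (0.37 and −0.051). Within replicate number 1 the median log2 change of the antiviral effectors was 1.18 and within number 2 it was 0.65, whereas the mitosis list gave −1.45 and −2.24. The comparison of batches has 1 library on each side and was not tested.

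**Figure D3:**
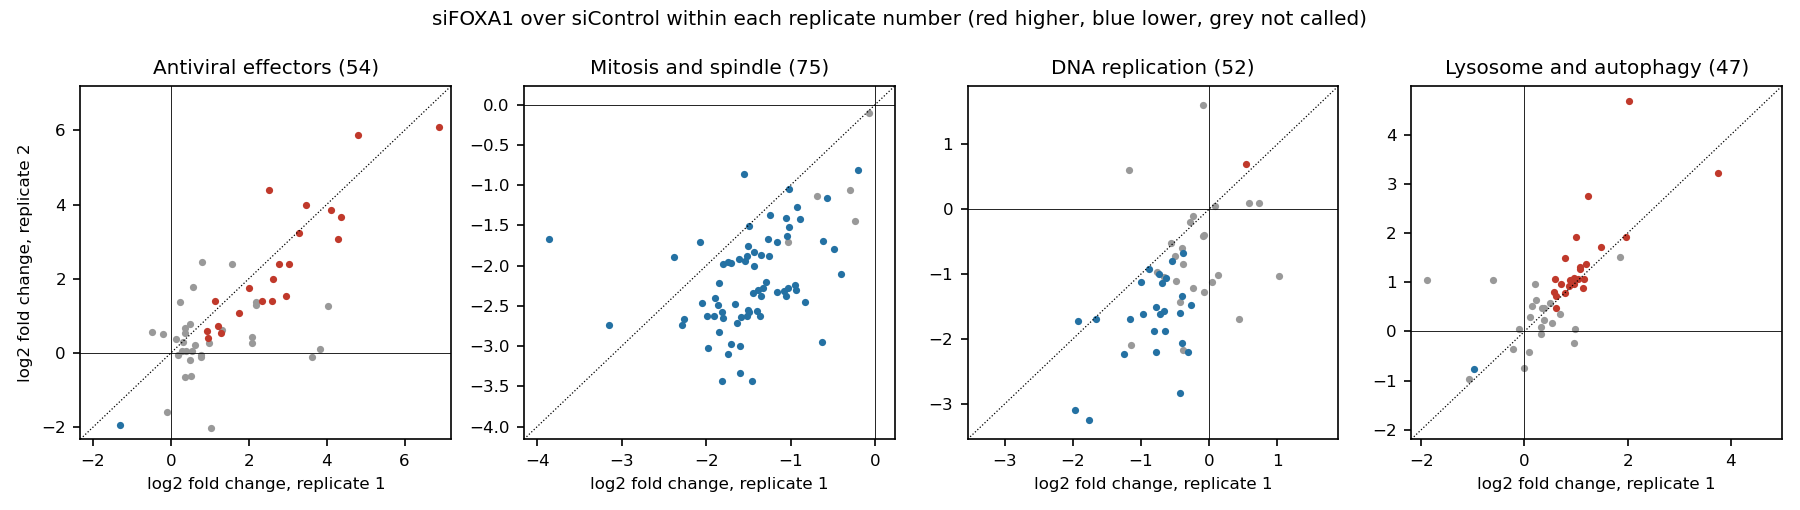
Log2 fold change (siFOXA1 over siControl) within replicate number 2 (vertical axis) against that within replicate number 1 (horizontal axis), each point a tested member of 4 gene lists, red where called higher, blue where called lower and grey where not called. Mitosis and spindle genes lie mostly under the dotted line of equal change, with medians of −1.45 and −2.24, and lysosome and autophagy genes lie along it.

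Promoter elements were counted in windows from 250 bases before to 50 after each RefSeq start, on both strands, for 9529 tested symbols that had a window. The interferon element was in 73.8% of 42 antiviral effectors, 3.574% of all 35116 windows and 3.74% of all genes tested. Of the 31 effectors that hold it 13 rose, 1 fell and 17 were not called, and of the 11 that do not 4 rose. Most effectors with the element were thus not called. Among all genes, 5.375% of the higher genes and 2.06% of the lower genes held it. CD274, LGALS9 and CEACAM1 are the checkpoint genes with the element, and all 3 rose. Of the 11 checkpoint genes without it, 4 were called higher and 1 lower. Of the MHC class I genes, 1 of the 7 with the element was called higher, beside 2 of the 5 without it. Of the sensors, 4 of the 7 with it were called higher, beside 3 of the 14 without it. TTTGAA was in 67.7% of 65 mitosis genes, 15.161% of all windows and 13.4% of all genes tested, and 43 of the 44 with it and 19 of the 21 without it fell. The E2F site was in 31.1% of 45 replication genes, 1.148% of all windows and 2.46% of all genes tested, and 7 of the 14 with it fell beside 18 of the 31 without it. The site TGTTTAC, a core bound by forkhead factors, was in 3.04% of the lower genes, 3.24% of the higher genes and 3.495% of all genes tested. A match to a short word is a description of sequence and does not show binding.

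**Figure D4:**
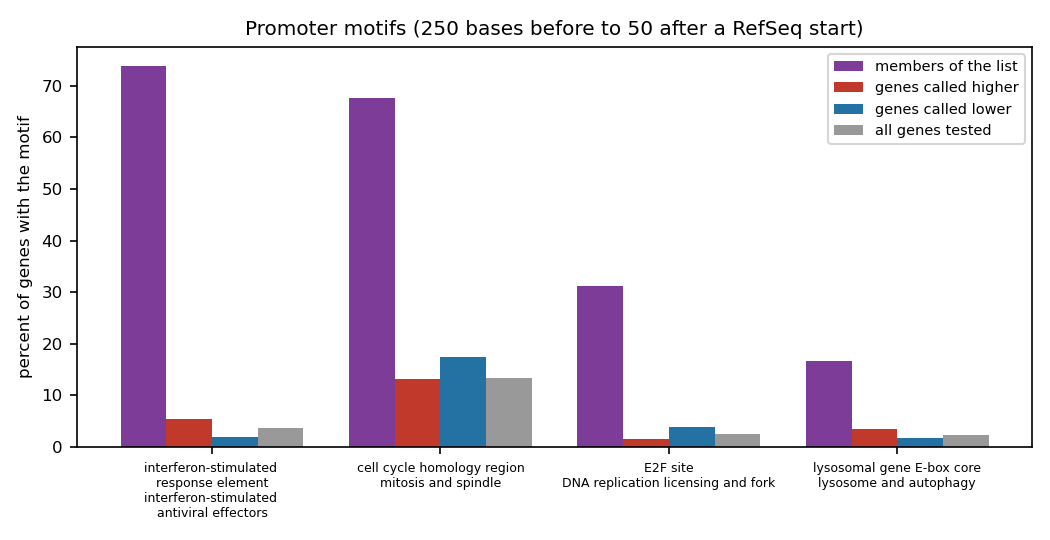
Percent of genes whose promoter window holds an element, for the members of a gene list, for all genes called higher or lower and for all genes tested. The interferon element was in 73.8% of antiviral effectors and 3.74% of all genes tested, and in 5.375% of the genes called higher and 2.06% of those called lower.

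Lysosome and autophagy genes rose more often than the background, with 24 higher and 1 lower of 47 tested out of 50 listed and a median of 0.68. On TPM, where all genes were shifted down, 7 were called higher and the median was 0.35. TFEB, the transcription factor of lysosomal genes, stood at 17.1 and 14.7 CPM under siControl and 68.4 and 56.7 under siFOXA1 (1.98, SE 0.29, adjusted p 1.95e-05). SLC17A5, which exports sialic acid from lysosomes, stood at 16.3 and 27.9 and 224 and 266 CPM (3.46, SE 0.22, adjusted p 2.15e-11), and PSAP, the precursor of saposins, at 955 and 1186 and 1853 and 2504 CPM (1.03, SE 0.15, adjusted p 1.93e-05). The autophagy receptors SQSTM1 and OPTN rose. SQSTM1, which encodes p62, went from 359 and 284 to 1199.8 and 1336 CPM (1.98, SE 0.16, adjusted p 1.55e-09), and OPTN from 42.6 and 39.1 to 121 and 129.8 CPM (1.62, SE 0.21, adjusted p 3.51e-06). The proton pump genes ATP6AP1 (1.11) and ATP6V0D1 (1.00) and the cholesterol exporter NPC1 (1.55) rose. CTSL, a lysosomal protease, was the member that fell (−0.88, SE 0.29, adjusted p 0.0285). This call was lost with the 4 compared libraries alone. Among the fits that leave out a library, it was held only without siFOXA1 replicate 2. The E-box TCACGTGA was in 16.7% of 36 members, 0.98% of all windows and 2.31% of all genes tested, and 2 of the 6 with it rose beside 16 of the 30 without it.

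Growth factor receptors and their output genes were called in both directions. FGFR3, a receptor often activated in luminal papillary tumours, stood at 98.4 and 124 CPM under siControl and 40.2 and 37.4 under siFOXA1 (−1.52, SE 0.19, adjusted p 1.74e-06). RT112 is known to carry an FGFR3-TACC3 fusion, of which the 3′ end, where these reads lie, belongs to TACC3. TACC3 went from 688 and 698 to 335 and 226 CPM (−1.30, SE 0.15, adjusted p 5.37e-07). These counts do not separate the fusion from native TACC3, a mitotic spindle gene. Of mitosis and spindle genes 70 of 75 were called lower (median −1.76). Whether the fusion transcript changed was not tested. The MAPK output genes DUSP6 (−1.31, SE 0.18, adjusted p 6.99e-06) and ETV4 (−1.83, SE 0.35, adjusted p 0.000369) also fell. EGFR, in contrast, stood at 80.4 and 71.8 and 157 and 149 CPM (1.01, SE 0.16, adjusted p 4.16e-05), and ERBB3 at 75.8 and 87.7 and 165 and 149.8 CPM (0.94, SE 0.17, adjusted p 0.000133). The immediate early genes JUND (1.49), JUN (0.60) and IER2 (0.77) rose. Of 32 FGFR3 and MAPK genes tested 9 fell and 7 rose, and of 13 ERBB genes 4 rose and 2 fell, with 2 higher without siFOXA1 replicate 1 or siControl replicate 2 and 0 on TPM.

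The ID genes, dominant-negative partners of bHLH factors and known BMP targets, fell in 3 of 4 members tested, and ID4, with 10 to 22 counts, did not pass (−0.05, SE 0.89, adjusted p 0.978). ID1 stood at 592 and 677 CPM under siControl and 79.5 and 70.1 under siFOXA1 (−3.08, SE 0.18, adjusted p 5.76e-12), ID2 at 40.9 and 39.8 and 7.85 and 11.6 CPM (−2.05, SE 0.29, adjusted p 1.22e-05), and ID3 at 412 and 453 and 267 and 279 CPM (−0.66, SE 0.15, adjusted p 0.00171). The wider BMP and TGF-beta list had 4 lower (11.4%) and 1 higher (2.86%) of 35 tested, beside 11.9% lower and 11.3% higher over all genes. The remaining lower member of this list was the receptor TGFBR2 (−1.37, SE 0.22, adjusted p 5.51e-05). The NOTCH targets HES1, HEY1 and HES4 fell. HES1 stood at 398 and 429 and 201 and 179 CPM (−1.12, SE 0.15, adjusted p 5.59e-06), HEY1 at 58.9 and 63.1 and 9.86 and 18.1 CPM (−2.13, SE 0.34, adjusted p 4.95e-05), and HES4 gave −1.71, SE 0.36, adjusted p 0.000969. Of 33 NOTCH and WNT genes tested 7 fell and 2 rose, with 3 lower without siFOXA1 replicate 2 or without siControl replicate 2. YAP-TEAD genes had 10 higher and 2 lower of 28 tested, and on TPM 3 were higher and the median of 0.30 turned to −0.02. ANKRD1, a standard target of YAP, stood at 9.45 and 8.63 CPM under siControl and 98.4 and 91.8 under siFOXA1 (3.39, SE 0.27, adjusted p 1.66e-09), CYR61 at 6.59 and 11.9 and 38.6 and 69.6 CPM (2.53, SE 0.34, adjusted p 5.12e-06), and AMOTL2 at 64.8 and 63.7 and 200.4 and 199.7 CPM (1.64, SE 0.17, adjusted p 1.28e-07). The abundant IGFBP3 fell from 960.2 and 1044 to 460.5 and 281 CPM (−1.43, SE 0.16, adjusted p 4.99e-07).

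Pericellular proteases and their inhibitors were more often higher than lower, with 13 higher and 4 lower of 29 tested (median 0.61) and 8 higher on TPM. CPA4, a secreted carboxypeptidase, stood at 36.7 and 26.1 CPM under siControl and 296 and 334 under siFOXA1 (3.33, SE 0.19, adjusted p 5.76e-12). The inhibitor TIMP2 went from 78.7 and 81.8 to 218 and 235 CPM (1.50, SE 0.17, adjusted p 4.29e-07), and the membrane protease MMP14 from 95.8 and 123 to 246 and 248 CPM (1.17, SE 0.19, adjusted p 4.3e-05). ST14, which encodes matriptase, and its inhibitor SPINT1 rose together by 1.24 and 1.52. Tissue factor, encoded by F3, fell by 1.39 on the log2 scale. Of 33 collagen, laminin and integrin genes tested 9 rose (2 on TPM) and 3 fell, among them the integrins ITGAV (1.37) and ITGB1 (0.75) that rose and the syndecan SDC1 that fell by 1.09.

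Metabolic genes changed in named steps. Of 39 glycolysis and hypoxia genes tested 15 fell and 2 rose (median −0.47), and 9 fell without siFOXA1 replicate 2. GPI, glucose-6-phosphate isomerase, stood at 367 and 417 CPM under siControl and 164 and 124 under siFOXA1 (−1.44, SE 0.15, adjusted p 2.32e-07). LDHA, lactate dehydrogenase, stood at 530.5 and 460.2 and 234 and 165 CPM (−1.31, SE 0.20, adjusted p 2.26e-05), and EPAS1, which encodes HIF-2 alpha, at 226 and 226 and 90.3 and 79.5 CPM (−1.41, SE 0.16, adjusted p 6.08e-07). DDIT4, a stress-induced inhibitor of mTORC1, fell from 413 and 342 to 106 and 66.2 CPM (−2.13, SE 0.19, adjusted p 1.14e-08). In lipid synthesis the list was balanced, with 6 higher and 6 lower of 37 tested, and 2 higher without siFOXA1 replicate 2 and 1 on TPM. The desaturase FADS1 fell from 31.6 and 64.4 to 5.03 and 3.44 CPM (−3.49, SE 0.48, adjusted p 6.01e-06) and SCD gave −0.80, while the regulator SREBF2 rose by 1.20 and LPIN1 by 1.80. Among NRF2 genes 7 fell and 6 rose of 28 tested, with 4 lower without siFOXA1 replicate 2 or without siControl replicate 2. The aldo-keto reductases AKR1C1 (−1.86, SE 0.20, adjusted p 3.07e-07) and AKR1C2 (−2.08, SE 0.17, adjusted p 1.63e-09) fell, but they are near-identical paralogs and their split is uncertain. OSGIN1 rose by 2.56 and ABCC3 by 1.29 (adjusted p 2.04e-05 and 5.59e-05).

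Of 78 cytosolic ribosomal proteins tested 32 were called, all lower (median −0.33). Leaving out siFOXA1 replicate 2 gave 18, and leaving out siControl replicate 2 gave 20. RPS6 stood at 1910.4 and 2150.2 CPM under siControl and 1008 and 974 under siFOXA1 (−1.04, SE 0.11, adjusted p 2.89e-07), and RPL12 at 574 and 592 and 308 and 245 CPM (−1.07, SE 0.13, adjusted p 1.74e-06). RPS2 fell by 2.09 on the log2 scale, and since ribosomal protein genes have many processed pseudogenes that can take their reads, single levels are uncertain. Of 45 ribosome biogenesis and MYC target genes tested 13 fell and 3 rose, with NPM1 at −0.99, SE 0.12, adjusted p 1.11e-06 and the polyamine enzyme SRM at −1.46, SE 0.20, adjusted p 4.98e-06. Transcripts of the mitochondrial genome were called in 7 of 13 cases, all higher, and 4 were higher without siControl replicate 2, 12 without siControl replicate 1, 11 with the replicate block, 3 with DESeq2 and 2 on TPM. MT-ND1, a subunit of complex I, stood at 3892 and 2414 CPM under siControl and 8106 and 8593 under siFOXA1 (1.41, SE 0.23, adjusted p 6.47e-05). The siControl libraries differed from each other here more than the siFOXA1 libraries did. The nuclear genes of the respiratory chain had 6 higher (9.23%) and 9 lower (13.8%) of 65 tested, near the shares over all genes. Fewer were lower without siFOXA1 replicate 2. Their median level was 180 CPM, and of all genes over 100 CPM 48.7% were called.

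Stress and death genes changed in few members. Of 31 p53 targets tested 7 rose and 2 fell, 4 rose without siControl replicate 1, and on TPM 3 rose and the median of 0.25 turned to −0.05. GDF15, a stress-induced cytokine, stood at 11.4 and 6.61 CPM under siControl and 60.6 and 56.1 under siFOXA1 (2.70, SE 0.37, adjusted p 7.09e-06), and ZMAT3 rose by 1.47 (adjusted p 2.61e-05), while CDKN1A did not pass as given above. Of 40 genes of the unfolded protein response and ER folding 12 rose and 1 fell, with 7 higher without siControl replicate 1 or 2 4 without siFOXA1 replicate 2, 6 with library size alone and 3 on TPM, where the median of 0.30 turned to −0.02. DNAJB9, an ER co-chaperone, went from 4.61 and 6.79 to 21.5 and 40.2 CPM (2.42, SE 0.44, adjusted p 0.000204). The proteasome list, at a median level of 169 CPM, had 3 higher and 3 lower of 37 tested (8.11% each). The BCL2 and caspase list had 4 higher (12.9%) and 1 lower (3.23%) of 31. Over all genes tested 11.3% were higher and 11.9% lower, and over 100 CPM 48.7% were called. On TPM neither list had a member called higher. CASP4, an inflammatory caspase of the BCL2 and caspase list, rose (0.84, SE 0.18, adjusted p 0.000847), a call lost on TPM. Genes of amino acid supply and tRNA charging had 5 higher and 7 lower of 39 tested, and 4 lower without siFOXA1 replicate 2.

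**Figure D5:**
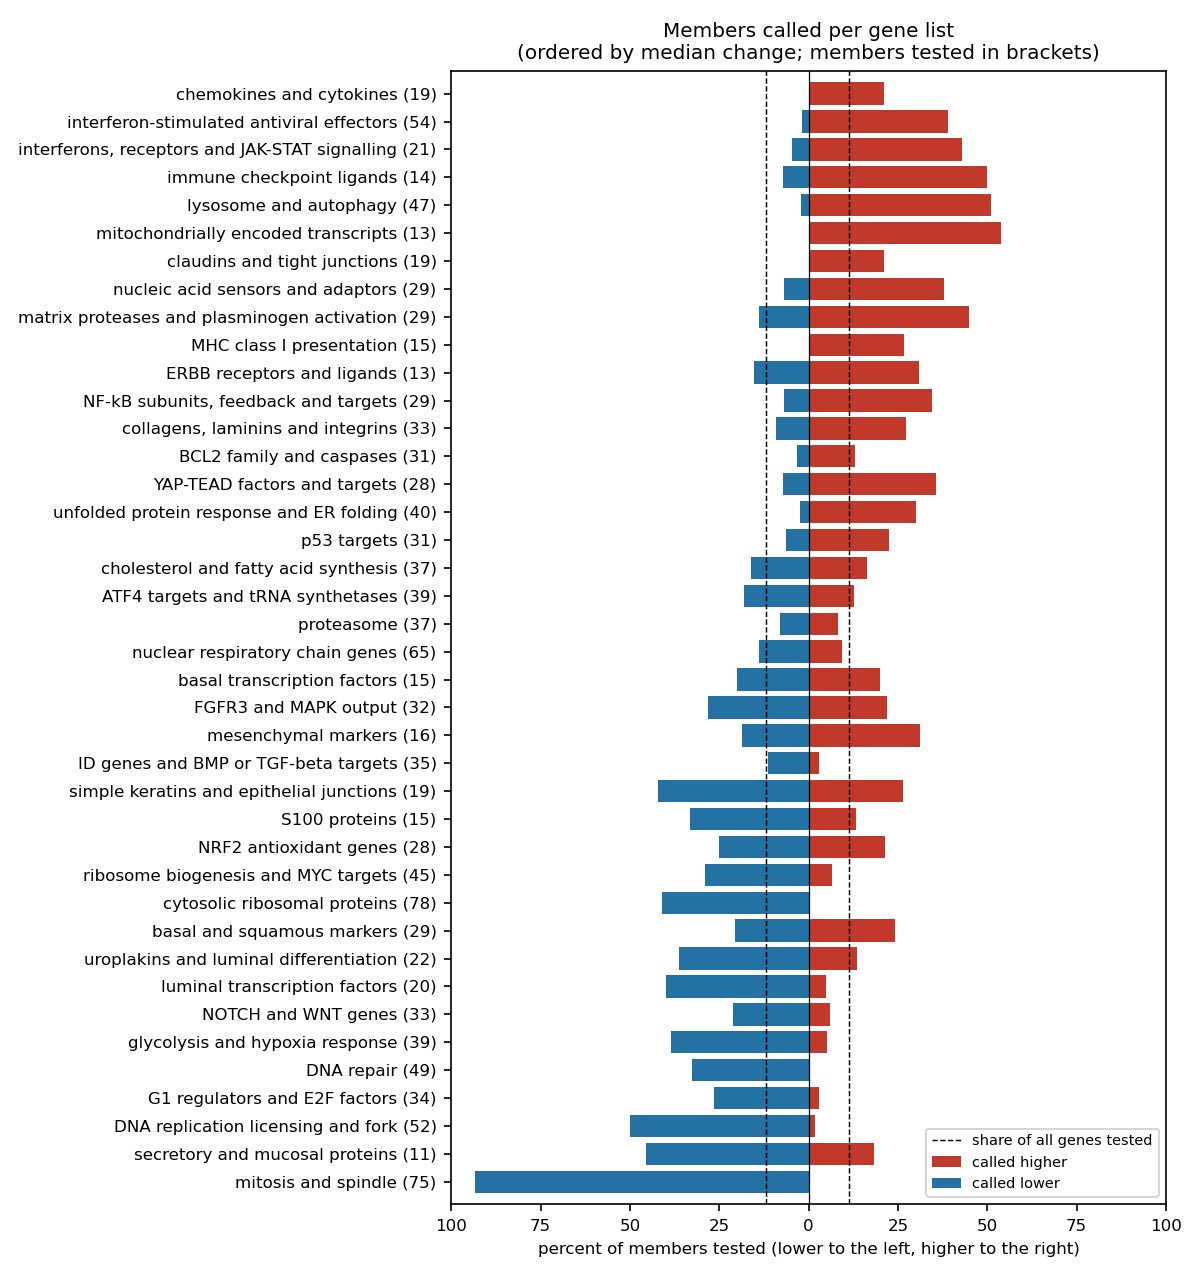
Percent of tested members called higher (red, to the right) and lower (blue, to the left) in each of 40 gene lists, ordered by median log2 fold change, with dashed lines at the shares over all genes tested, 11.3% higher and 11.9% lower. Mitosis and spindle genes stand apart at the bottom with 70 of 75 lower. Most lists exceed the background on the right, among them the interferon, checkpoint, lysosome, matrix protease, YAP-TEAD, NF-kB and unfolded protein response lists. The share called higher is largest for mitochondrially encoded transcripts.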

How the data were processed

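Libraries were made by 3′ RNA-seq (Lexogen FWD kit) and grouped by the labels. Per the labels, the authors trimmed reads with TrimGalore (minimum quality 20, minimum length 10), aligned them with STAR 2.6.1a to hg38 and deposited raw counts per gene from GENCODE release 29, the strand setting being found automatically. In the study's methods the build is hg19. The authors also deposited TPM values, which divide by gene length and were used here in 1 alternative only, since 3′ reads do not scale with length. Both tables hold all 24 libraries, of which the 12 of RT112 were used.

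Counts were tested with the quasi-likelihood F-test of edgeR 4.0.16 in R 4.3.3 (glmQLFit, glmQLFTest, TMM, filterByExpr by group with a minimum count of 10 and a minimum total of 15). All 12 libraries of 6 groups entered 1 fit, and 13264 genes were tested, with a biological coefficient of variation of 25.8%. Genes were called at a Benjamini-Hochberg adjusted p under 0.05 over all genes tested, and changes past 2-fold were tested with glmTreat. Fold changes are log2, siFOXA1 over siControl, with the standard error (SE) of the coefficient, and CPM are given per library in the order of replicates. A count of 0 was given a floor of 3 counts per library, which covers counting error only, since no molecular identifiers were stated. The fit was tested on simulated data. Replicates differed by more than counting noise (chi-square per gene 10.9 for siControl and 9.33 for siFOXA1), so none was a copy of another.

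Per the labels a replicate number marks an experiment batch, so equal numbers pair samples. The test reported has no block, and the block was an alternative. Deviations of equal numbers from their group means correlated at a mean of 0.0336 over 15 pairs of groups, 0 pairs exceeded 0.1, and siControl with siFOXA1 gave 0.00519.

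The 41 gene lists and the members were chosen with earlier results of these data known, so lists are described by counts and medians beside all genes tested and no list test was made. Named genes are FOXA1 and ZBED2, 12 per direction with the smallest p and non-overlapping groups, 12 per direction with the largest change at a mean of at least 20 CPM, up to 6 called members per list and direction, and fixed anchors. ATP6V0D1, BACE1, CCNB2, CDC20, CXCL10, GBP1, GBP2, GINS1, GRHL2, ID4, KRT86, MCM7, MX1, NPC1, OAS1, PLK1, RIPPLY3, RSAD2 and the promoter set were chosen after their values were seen. Some genes that the rule names are not reported here. Promoter windows are RefSeq, GRCh38.p14. Alternatives were RLE factors, library size alone, no filter, a mean of at least 5 CPM, the 4 libraries alone, DESeq2 1.42.0, a replicate block, limma 3.58.1 on log2(TPM + 1), each library left out, and, added after seeing the data, mitochondrial transcripts left out.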

Additional observations from a re-analysis of the deposited data

How the results depend on the processing

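In all 13 alternatives the called genes that were called again had the same direction, and 0 of the 3084 called genes changed sign in any. With scaling to library size alone the median of all genes was −0.11 and 38.6% of calls were higher. With the replicate block 3389 genes were called, 11 of the 3084 calls were lost, and the block moved no count given in the report by over 1.5 times, apart from mitochondrially encoded transcripts (11 higher beside 7). Among the named genes it also called UPK2, KRT5 and E2F1, which the fit without it did not, and CXCL10 was called with DESeq2 and on TPM (adjusted p 0.023 and 0.0264). Of the named genes, 167 were called and 138 of these in every alternative.

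On TPM, 391 genes were called higher, and lists had 2 basal, 3 interferon and JAK-STAT, 1 sensor, 11 antiviral effector and 6 NF-kB members called higher. Medians were then 0.50 for interferon and JAK-STAT genes, 0.31 for sensors, 0.61 for antiviral effectors, 1.11 for chemokines, 0.030 for NF-kB, −1.09 for replication and −1.98 for mitosis. They turned to −0.051 for p53 targets, −0.013 for the BCL2 family, −0.017 for YAP-TEAD genes and −0.024 for the unfolded protein response. Genes that were not called turned too, to −0.28 (CCND1), −0.18 (CDKN1A), −0.30 (ELF3), −0.24 (GBP1) and −0.055 (GBP2). The shift of all genes on TPM was −0.26. With library size alone CCND1 gave −0.068, GBP1 −0.053 and ELF3 −0.095. ELF3, at 0.00, was also under 0 without a filter on low counts (−0.000613), at a mean of at least 5 CPM (−0.00235) and with the replicate block (−0.00199). At a mean of at least 5 CPM fewer genes were tested, and the medians were 0.96 for antiviral effectors and 1.04 for chemokines, with 2 chemokines higher. The median of leukocyte, fibroblast and endothelial markers, which rests on 3 genes tested, turned to 1.06 there and to 1.08 with the 4 libraries alone, where 5 luminal differentiation genes were lower.

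Leaving out a library each in turn gave counts of 5 to 7 for uroplakins and luminal differentiation lower, 1 to 3 for chemokines and cytokines higher, 1869 to 2870 for genes called, 860 to 1335 for genes called higher, 944 to 1535 for genes called lower, 172 to 488 for genes past 2-fold, 11 to 31 for DNA replication licensing and fork lower, 4 to 8 for nucleic acid sensors and adaptors higher, 4 to 7 for basal and squamous markers higher and 5 to 8 for interferons, receptors and JAK-STAT signalling higher. The medians ran from 0.68 to 1.33 for interferon-stimulated antiviral effectors, −1.24 to −0.53 for DNA replication licensing and fork, −2.26 to −1.39 for mitosis and spindle, 1.71 to 2.28 for chemokines and cytokines and −0.56 to −0.12 for uroplakins and luminal differentiation. KRT6A, with 1 to 53 counts, ranged from −4.68 to 1.27 and turned without siControl replicate 1. Without any single library CCND1 ranged from −0.14 to 0.19, CDKN1A from −0.15 to 0.40, ELF3 from −0.042 to 0.048, ID4 from −0.78 to 0.44 and GBP1 from −0.11 to 0.22. With 1 library left in a group, that library was assumed to vary as the others do. The cause of these differences was not tested. Depth limits the precision of low genes, with a median SE of 1.45 under 5 CPM and 0.159 over 100 CPM.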

Other observations

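Some gene families outside the lists were described by symbol pattern, chosen after the values were seen. Replication-dependent and variant histone genes were called in both directions. Of 34 tested 15 were called lower and 4 higher, and the lower members included HIST1H4C, which codes for histone H4 (−1.83, SE 0.15, adjusted p 2.14e-09). The 4 that were higher, HIST1H2AC (3.72, SE 0.33, adjusted p 1.26e-08), HIST1H2BD (2.80, SE 0.38, adjusted p 6.15e-06), HIST2H2BE (2.73, SE 0.78, adjusted p 0.0115) and HIST3H2A (1.57, SE 0.54, adjusted p 0.0345), all code for H2A or H2B, and the calls of HIST2H2BE and HIST3H2A were lost in leave-one-out fits. Many histone genes are near-identical copies, and most replication-dependent ones lack a poly(A) tail, so their counts are uncertain in a library primed with oligo-dT. Of 18 subunits and accessory proteins of the V-ATPase, the proton pump of lysosomes, 10 were called higher and 1 lower, and their summed level was 1386 and 1560.2 CPM under siControl and 2507 and 2754 CPM under siFOXA1. The summed level of 14 IFI, IFIT and IFITM genes was 103 and 92.5 CPM under siControl and 812 and 423 CPM under siFOXA1. Of 10 tubulins tested 5 were called, all lower, among them the abundant TUBA1B (−1.53, SE 0.17, adjusted p 2.51e-07). Among 491 long non-coding RNAs tested 18 were called higher and 36 lower, 11.0% in all beside 25.6% of protein-coding genes. These classes were not matched for level, and the share called ran from 3.66% of genes under 5 CPM to 48.7% of those over 100 CPM. Mitochondrial ribosomal proteins, with 75 tested, had 10 higher and 7 lower.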
